A study of Mus musculus with 30 samples.

Results

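The genes described here encode the constitutive proteasome: the subunits of its 20S core and 19S cap that most cells express, without the immunoproteasome subunits Psmb8, Psmb9 and Psmb10. They were chosen by symbol alone, as Psma, Psmb, Psmc or Psmd followed by a number, so no measured value decided which genes belong, although 1 probe set per gene was taken as the set of highest mean signal over all arrays. The rule found 37 genes with 76 probe sets on the array. Of these, 35 passed the filter on low signal and were tested among 12183 genes. Psma8 and Psmb11, the testis and thymus forms of an alpha and a beta subunit, did not pass, with signals of at most 6.84 and 7.26 on the log2 scale on any array. Psmc3ip also matches by its letters, but encodes a factor of meiotic recombination and is no proteasome subunit; it is kept by the rule and named apart. Psmd5, Psmd9 and Psmd10 encode chaperones that help assemble the 19S base.

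Transcripts were measured on 30 Affymetrix mouse arrays, 1 per culture and 3 per group, in resting mature B cells purified from spleen, on the C57BL/6, B1-8i background per the labels. Wild-type cells (Irf4+/+) were sampled at days 0, 1 and 3. The other cells, called KO at every dose, came from Irf4-/- mice that carry an Irf4 gene induced by doxycycline (DOX), and were sampled at day 0 without DOX, then on days 1 and 3 of culture in DOX at 0 (zero), 16 (low) or 100 ng/mL (high). Day 0 cells were not stimulated, and all cultures of days 1 and 3 received CD40 ligand and the cytokines IL-2, IL-4 plus IL-5, a mixture that drives division, class switching and plasma cell formation. The wild-type cultures carry no inducible Irf4 and the labels record no DOX for them, so genotype and the inducible allele differ together, and the sources used here do not name the promoter or cell type that drives the transgene. Per the series text each replicate is an individual mouse, and 1 of the 3 in a group was done at another time, with no word on which.

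The proteasome degrades proteins marked with ubiquitin. Its 20S core is a barrel of alpha rings, which gate the entrance, and beta rings, in which Psmb5, Psmb6 and Psmb7 carry the chymotrypsin-like, caspase-like and trypsin-like active sites. The 19S cap recognises ubiquitin, removes it and feeds the unfolded chain into the core through a ring of ATPases, Psmc1 to Psmc6. Activated B cells that become plasma cells synthesise large amounts of secreted antibody, and plasma cells are known for their sensitivity to proteasome inhibitors. In mammalian cells that lack proteasome activity, the transcription factor Nrf1, encoded by Nfe2l1, binds antioxidant response elements (AREs) before proteasome genes and raises many of them together.

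The ARE core, searched as TGACNNNGC on both strands in the 250 bases before each RefSeq gene start (build GRCm38.p6), was found in 5 of 32 promoters of 30 member genes, or 15.6%, against 10.2% of 32851 promoters of all genes. The 60 bases around each match are shown because these are the member promoters in which the letters of the factor's known element occur. Each is printed 5′ to 3′ on the strand of its gene, with the match in capitals, read in reverse complement in Psmc6 and Psmd12.
Psmb5 (chr14:54618008-54618067, minus strand, match ending 39 bases before the start): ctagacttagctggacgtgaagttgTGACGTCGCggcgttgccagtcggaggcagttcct
Psmb6 (chr11:70525297-70525356, plus strand, match ending 1 base before the start): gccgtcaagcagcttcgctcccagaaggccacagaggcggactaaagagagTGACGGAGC
Psmc6 (chr14:45329574-45329633, plus strand, match ending 219 bases before the start): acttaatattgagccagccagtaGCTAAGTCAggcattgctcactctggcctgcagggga
Psmd12 (chr11:107479278-107479337, plus strand, match ending 239 bases before the start): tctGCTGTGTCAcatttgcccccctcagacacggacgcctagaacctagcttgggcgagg
Psmd9 (chr5:123228130-123228189, plus strand, match ending 23 bases before the start): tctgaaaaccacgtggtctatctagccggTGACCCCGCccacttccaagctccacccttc
A match is a description of letters and not a bound site. The CCAAT box, searched as CCAAT on both strands, was found in 13 of 32 member promoters (40.6%) and in 33.8% of all.

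Some facts of the arrays touch these results. Median intensity was 171.4 to 174.2 on the 3 wild-type day 1 arrays and 176.7 to 199.7 on the other 27, so this group stood apart. The 3′ to 5′ log2 difference of the Actb control set was 0.11 to 0.17 on the day 1 arrays of both genotypes and 0.14 to 0.27 on the others. Arrays of 1 group correlated at 0.9786 to 0.9982. The DOX-responsive Irf4 probe set went against the label on 2 day 1 arrays: KO zero DOX replicate 2 read 10.77 where its group's others read 7.84 and 7.80, and KO low DOX replicate 2 read 7.69 where the others read 11.17 and 10.89. KO day 0 replicate 2 stood apart in the 3′ to 5′ difference of the Gapdh control set (0.25 on the log2 scale), and KO day 0 replicate 3 had the lowest array weight (0.254). By Xist and Eif2s3y, all wild-type arrays came from females, and each KO group held 2 males and 1 female. The female was replicate 3 in every KO group. Of 8 B cell markers 7 passed the filter, and their summed intensity per array lay between 53002 and 88545 over the 30 arrays. In bulk samples such as these, fewer cells of a type and less RNA per cell cannot be told apart.

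**Figure D1:**
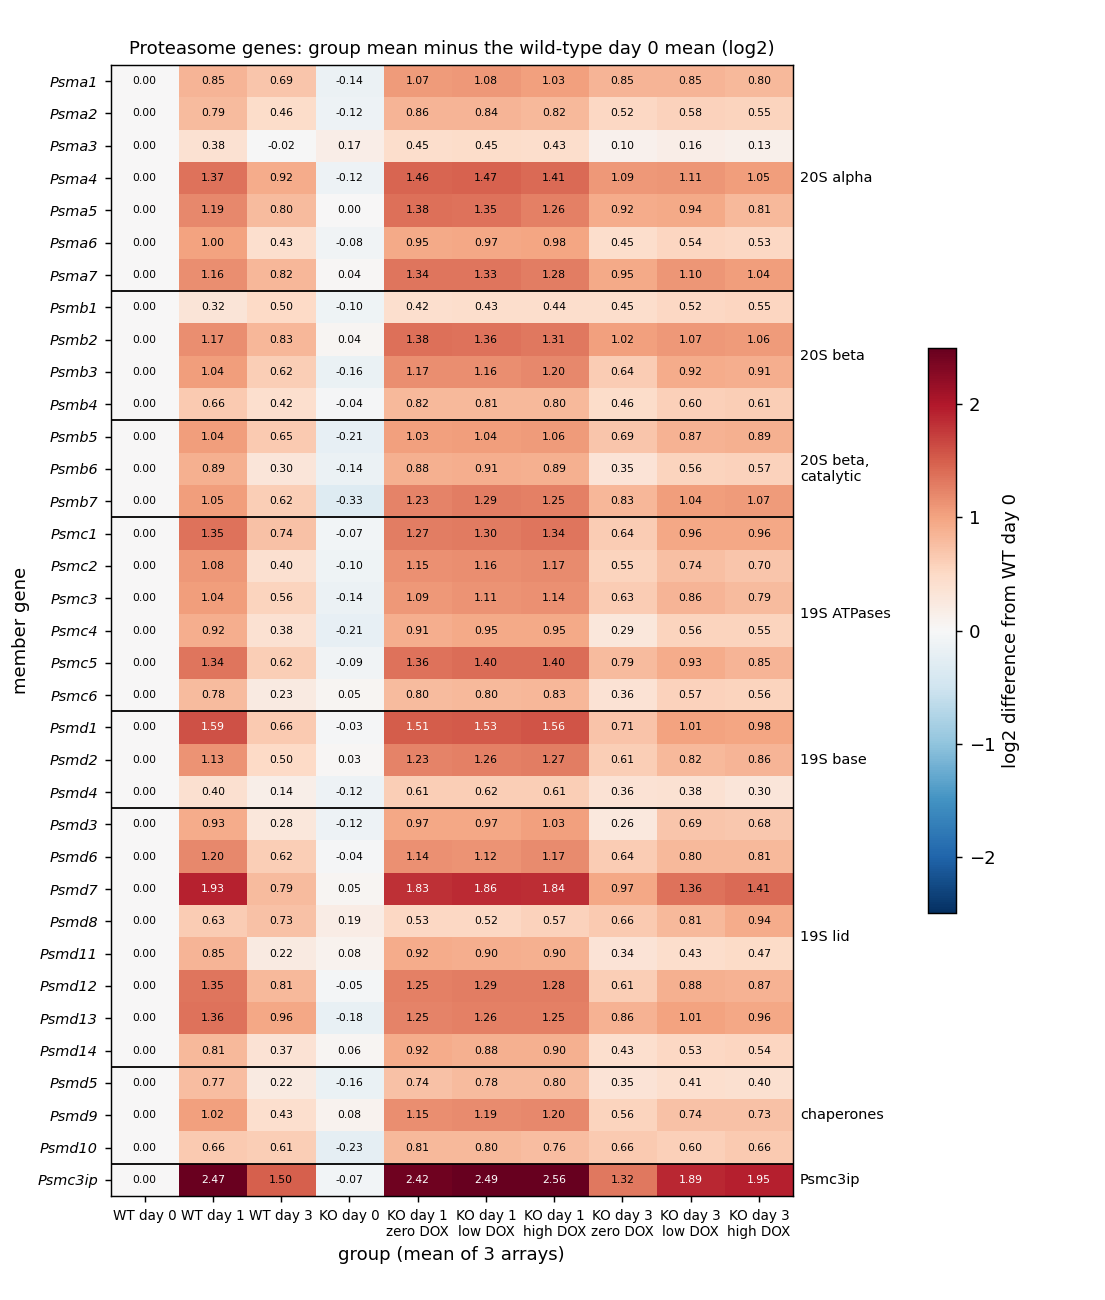
Group means of the 35 tested proteasome genes (rows, ordered by role) minus each gene's wild-type day 0 mean, on the log2 scale, in the 10 groups (columns, 3 arrays each). All 35 genes lie above 0 at day 1 in both genotypes, and most columns of day 3 lie between those of day 0 and day 1.

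The first comparison asks how B cell activation changes these genes in cells with intact Irf4. After 1 day of stimulation all 35 had risen, where 33.9% of all 12183 genes were called higher (adjusted p under 0.05, limma with Benjamini-Hochberg adjustment over all genes). Their median log2 difference was 1.04, a fold of 2.06, and single genes rose by 0.32 to 2.47, while the median of all genes was -0.15. Levels are log2 of the deposited intensity plus 16, so that the fold of a weak signal is understated, and levels of different probe sets are not compared. In all 35 genes every day 1 array lay above every day 0 array, as in 35.5% of all genes.

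The rise ran through both rings of the core. All 7 alpha subunits rose, by a median of 1.00, led by Psma4, which read 11.93, 11.94 and 11.87 on the wild-type day 0 arrays and 13.26, 13.25 and 13.32 at day 1. The difference was 1.37 (SE 0.04, adjusted p = 3.8e-19 by limma, n = 3 per group). Psma3 rose least of this ring, by 0.38.

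The 3 catalytic subunits rose to a like extent. Psmb5, the chymotrypsin-like subunit and main target of bortezomib, read 11.89, 11.96 and 11.73 at day 0 and 12.89, 12.92 and 12.88 at day 1. It rose by 1.04 (SE 0.052, adjusted p = 5.2e-15 by limma). Psmb7, the trypsin-like subunit, read 9.89, 10.13 and 10.09 at day 0 and 11.19, 11.06 and 10.99 at day 1, a rise of 1.05 (SE 0.075). The caspase-like subunit Psmb6 went from 11.88, 11.94 and 11.84 to 12.75, 12.79 and 12.78, a rise of 0.89 (SE 0.04). For each of them the lowest day 1 array lay above the highest of day 0. Among the 4 beta subunits without an active site, which rose by 0.32 to 1.17, Psmb1 moved least of all 35 genes.

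In the 19S cap the rises spread more widely. The 6 ATPases rose by 0.78 to 1.35, with Psmc1 going from 10.51, 10.59 and 10.42 to 11.82, 11.89 and 11.87. Psmd1, a large scaffold of the base, rose by 1.59 (SE 0.067, adjusted p = 2.5e-16 by limma), while Psmd4, a ubiquitin receptor of the base, rose by 0.40. Psmd7, which pairs with the deubiquitinase Psmd14 in the lid, rose most of the true subunits. It read 10.24, 10.34 and 10.16 at day 0 and 12.16, 12.12 and 12.24 at day 1, a difference of 1.93 (SE 0.066, adjusted p = 5.4e-18 by limma) or 3.8-fold. The 8 lid subunits rose by a median of 1.06 and the 3 assembly chaperones by 0.77. Psmc3ip, the member that is no subunit, had the largest rise in the list, from 7.95, 7.87 and 7.90 to 10.35, 10.43 and 10.34 (2.47, SE 0.062). Beside these genes, 9 of 9 tested cell cycle markers rose (median 2.52). Markers fell in 5 of 5 tested cases for T cells (median -0.90) and 4 of 5 for NK cells (-1.01), where 47.6% of all genes were called lower. So did 6 of 7 B cell (-0.31), 6 of 9 plasma cell (-0.96) and 6 of 12 myeloid markers (-0.48), with 1 higher in each of these lists. The part of these cells in the result was not tested.

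By day 3 the wild-type levels had come part of the way down again. Against day 0, 34 of 35 members were still higher (33.4% of all genes), with a median difference of 0.61 beside -0.01 for all genes. Psma3 was the exception, at -0.02 (adjusted p = 0.77 by limma). Psmc3ip (1.496), the lid subunit Psmd13 (0.96), Psma4 (0.92) and Psmb2 (0.83) stood highest above day 0. Over the 35 genes the median share of the day 1 rise still present at day 3, as a ratio of log2 differences, was 53.8%.

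Between days 1 and 3, 32 members fell (26.2% of all genes were lower) and 1 rose (43.3% were higher). The median was -0.48 beside 0.12 for all genes. Psmd7 fell most, to 11.05, 11.02 and 11.04 (-1.14, SE 0.066, adjusted p = 5.6e-13 by limma), followed by Psmc3ip (-0.97), Psmd1 (-0.93) and the ATPase Psmc5 (-0.72). The catalytic subunits fell as well, Psmb6 by -0.59, Psmb7 by -0.43 and Psmb5 by -0.39. Psmb1 alone rose, by 0.18 (adjusted p = 0.00013 by limma), reading 12.75, 12.81 and 12.86 at day 1 and 12.99, 13.01 and 12.97 at day 3; with arrays centred on their medians it read 0.05 and was not called. Psmd8, a lid subunit (0.10), and the chaperone Psmd10 (-0.05) did not pass the test. Over these days 8 of 9 plasma cell markers rose (median 1.34), as did 6 of 7 B cell (0.34), 3 of 5 NK (0.94), 3 of 5 T cell (0.28) and 3 of 12 myeloid markers (0.29), while cell cycle markers rose in 1 and fell in 3 of 9 cases; their part was not tested.

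**Figure D2:**
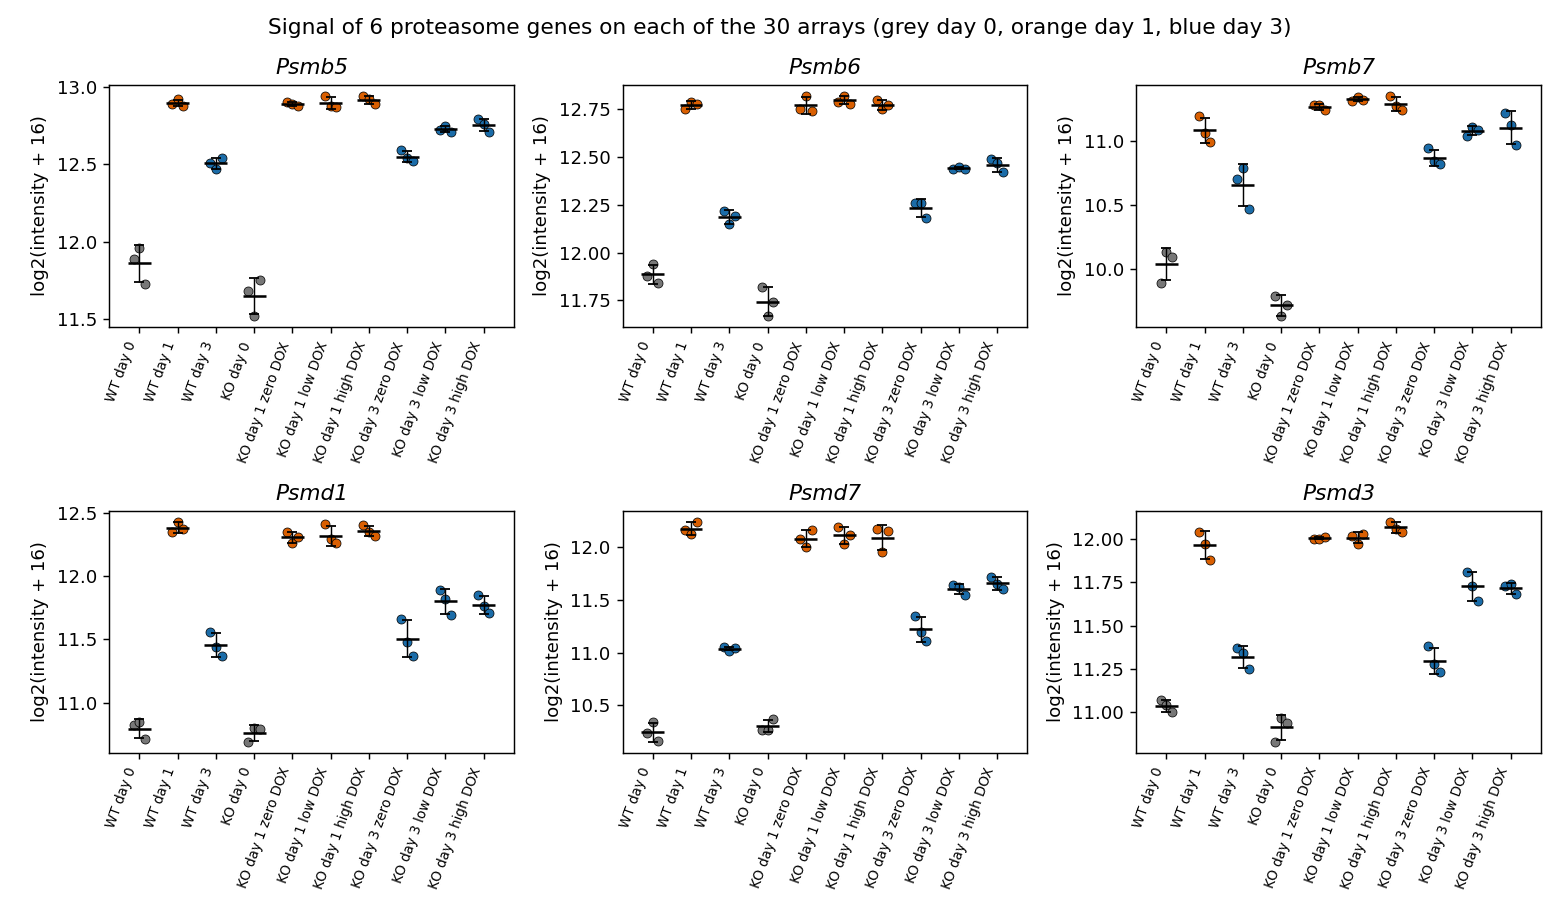
Signal of 6 proteasome genes, log2(intensity + 16) on the vertical axis, on each of the 30 arrays (points) with the mean and SD of each group (line and bar), in the 10 groups on the horizontal axis. Psmd7 reads 10.16 to 10.34 at wild-type day 0, 12.12 to 12.24 at day 1 and 11.02 to 11.05 at day 3, and in KO cells at day 3 the cultures with DOX lie above those without.

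The same course was seen in KO cells without DOX, in which activation proceeds without Irf4. All 35 members rose by day 1 (39.8% of all genes were called higher), by a median of 1.20 beside 0.06 for all genes. Psmc3ip (2.49), Psmd7 (1.78) and Psma4 (1.58) rose most, and Psmb7 rose by 1.56, from 9.79, 9.63 and 9.72 to 11.28, 11.28 and 11.24. By day 3, 34 were higher than at day 0 (36% of all genes), with a median of 0.66, and Psma3 was again not called (-0.08). Between days 1 and 3, 33 fell (26.7% of all genes) and 1 rose (25.9%), with a median of -0.46. Psmd8 was the gene that rose (0.14, adjusted p = 0.027 by limma). The order day 0, day 3, day 1 from lowest to highest mean held for 32 of 35 members in each genotype, with the share of all genes not counted. The median share of the rise kept at day 3 was 57.4% in KO cells. The zero DOX day 1 group holds the array whose Irf4 signal went against its label, and without both such arrays all 35 members were still called higher than at day 0. By day 1 in these cells 9 of 9 cell cycle markers rose (median 2.28). Markers fell in 5 of 5 NK (-1.56) and 5 of 5 T cell cases (-0.32), where 3664 of 12183 genes were called lower. Myeloid markers fell in 6 of 12 cases and rose in 1 (-0.73). B cell markers fell in 4 of 7 and rose in 1 (-0.28). Of 9 plasma cell markers 2 rose and 3 fell (0.15). From day 1 to day 3 markers rose in 5 of 5 cases for NK cells (2.34) and 7 of 7 for B cells (0.26). So did 5 of 12 myeloid (0.54) and 3 of 5 T cell markers (0.32). Of 9 plasma cell markers 1 rose and 2 fell (0.11), and of 9 cell cycle markers 1 rose and 3 fell (-0.02). Their part was not tested.

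Genotypes were then compared at each day, to see what loss of Irf4 changes. Before stimulation 2 members were higher (13.1% of all genes) and 10 lower (18.4%) in KO than in wild-type cells, with a median of -0.08 beside -0.05 for all genes. Psmb7 differed most, by -0.33 (SE 0.075, adjusted p = 0.0019 by limma). Its KO arrays (9.63 to 9.79) all lay below those of wild type (9.89 to 10.13), as in 22.1% of all genes. Psmd10 (-0.23), Psmb5 (-0.21), Psmc4 (-0.21) and Psmb6 (-0.14) were also lower, while Psmd8 (0.19) and Psma3 (0.17) were higher with arrays that overlapped. These small differences did not hold in every fit: 5 members were called when KO day 0 replicate 2 was left out, 6 without wild-type day 0 replicate 2, and none by limma when the 6 arrays were fitted alone. In the same samples 10 of 12 myeloid markers were higher in KO (median 1.60), with summed intensities of 5538 to 11019 per array against 2733 to 2964 in wild type. So were 4 of 5 tested NK markers (median 1.17; 3116 to 3841 against 1161 to 1524) and 8 of 9 cell cycle markers (median 0.74). Their part in the result was not tested. With a sex term, which the KO groups of both sexes allow, 2 members were higher and 14 lower. The only female of each KO group was replicate 3, so this term cannot separate sex from that replicate, here or at later days.

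At day 1, 10 members were higher in KO cells and none lower, where 33.9% of all genes were called higher. The members' median of 0.06 lay beside 0.07 for all genes. Psma1, an alpha subunit (0.23), Psmb2 (0.22), Psmd4 (0.21) and Psmb7 (0.19) differed most. In each the KO arrays lay above those of wild type without overlap, as in 43.3% of all genes. The direction of this comparison depends on scaling: with arrays centred on their medians 10 members were called lower and none higher, and the split of all called genes went from 68.3% to 38.1% higher. Psmb5 (-0.01) and Psmb6 (-0.01) did not pass the test. Without KO zero DOX replicate 2, the array against its label, 5 members were called, all higher. With a sex term 8 were higher and 4 lower. Of 12 myeloid markers 11 were higher in KO at this day, with summed intensities of 4571 to 6241 against 1829 to 2081, as were 4 of 5 tested T cell markers (1380 to 1599 against 965 to 1004); their part was not tested.

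At day 3, 9 members were higher (19% of all genes) and 2 lower (15.8%), with a median of 0.07 beside 0.004 for all genes. Psmd4 was highest (0.22, SE 0.061), reading 12.26, 12.25 and 12.09 in KO cells and 11.95, 12 and 11.99 in wild type, followed by Psmb7 (0.22), Psmb2 (0.19) and Psmd7 (0.19). The lid subunit Psmd12 (-0.20, adjusted p = 0.0064) and Psmc3ip (-0.18, adjusted p = 0.029, both by limma) were lower. With 1 array left out in turn the count of 11 went from 5 (without KO zero DOX replicate 1) to 16 (without replicate 3 of that group), and it was 6 without wild-type replicate 2 and 7 without wild-type replicate 3. With a sex term 5 were higher and 2 lower. Myeloid markers were higher in 9 of 12 cases, with summed intensities of 6821 to 12374 in KO cells and 2673 to 2871 in wild type, and NK markers in 5 of 5 (4827 to 9259 against 1392 to 2075). T cell markers were higher in 3 of 5 tested cases (median 0.79). Plasma cell markers were lower in 8 of 9 (median -1.69). The part of these markers in the result was not tested.

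The changes themselves were also compared between genotypes. For day 1 against day 0, the change was larger in KO cells in 11 members (32.4% of all genes) and smaller in 1 (11.5%). The median of this interaction was 0.14 beside 0.13 for all genes, and centring turned both, to -0.03 and -0.04, with 1 member higher and 3 lower. For day 3 against day 0 the counts were 10 higher (16%) and 1 lower (9.95%), with medians of 0.10 and 0.05. Psmb7 had the largest interaction on both days (0.51 and 0.54, adjusted p = 0.00066 and 0.00058 by limma): its level was lower in KO cells at day 0 and higher at days 1 and 3. Psmd8 went the other way (-0.29 and -0.25). Both comparisons use the same day 0 arrays, so their values are not independent. In the same interactions cell cycle markers were lower in 6 of 9 cases at day 1 (median -0.67) and 8 of 9 at day 3 (-0.81). Plasma cell markers were higher in 5 of 9 at day 1 (0.27) and lower in 6 and higher in 1 at day 3 (-0.58). The part of these markers was not tested.

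The next comparison sets KO cultures with DOX, in which Irf4 is restored, against those without, and at day 1 no difference was detected. The labels record no DOX for cells without the inducible allele, so DOX itself and Irf4 cannot be told apart at either day. Between the high and zero DOX cultures none of the 35 members was called by limma, where 2.75% of all genes were, and 2 had an unadjusted p under 0.05. The median difference was 0.02, and the 95% intervals of the single genes reached from -0.23 (Psma5) to 0.27 (Psmc3ip). Psmb5 read 12.90, 12.89 and 12.88 with zero DOX and 12.94, 12.92 and 12.89 with high DOX. None was called without the arrays that went against their labels either. By its DOX-responsive probe set, Irf4 read 13.10, 12.68 and 12.85 in the high DOX cultures and 7.92, 7.89 and 7.64 in wild type at day 1. The other Irf4 set did not rise with DOX. At day 1 it read 11.71, 11.84 and 11.56 with high DOX and 12.20, 11.96 and 11.99 with zero DOX. In wild type it read 11.76, 11.66 and 11.74. How restored Irf4 compares with that of wild type was not tested.

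**Figure D3:**
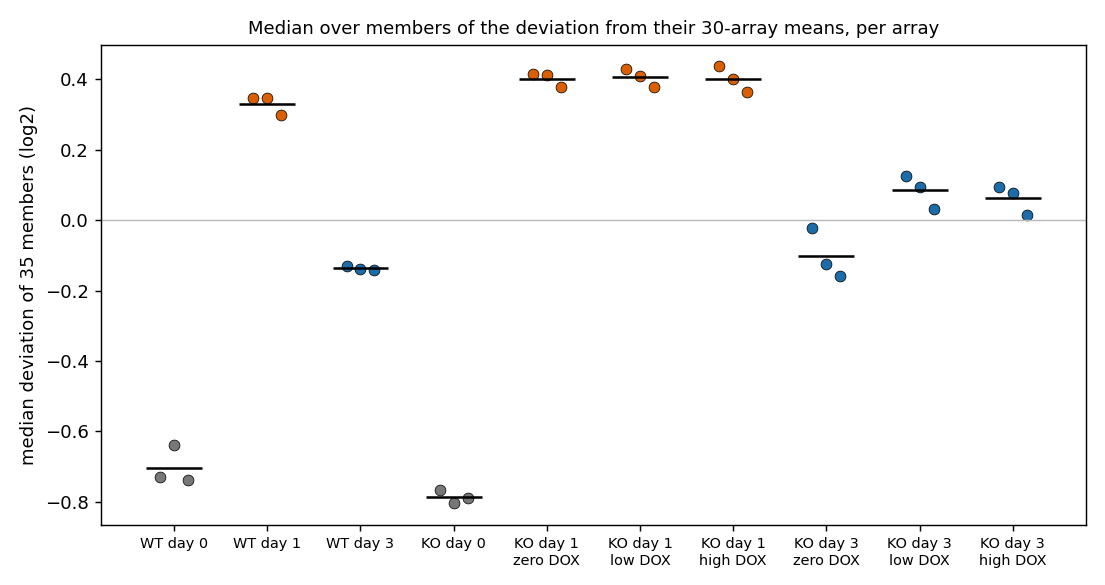
Median over the 35 tested members of each gene's deviation from its own 30-array mean (log2, vertical axis), 1 point per array, in the 10 groups (horizontal axis). At day 3 the KO arrays with low DOX (0.03 to 0.13) and high DOX (0.02 to 0.10) lie above all zero DOX (-0.16 to -0.02) and wild-type arrays (-0.14 to -0.13).

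At day 3 the cultures with restored Irf4 had higher proteasome transcripts than those without. With high DOX 22 of 35 members were higher than with zero DOX and none lower, where 24.4% of all genes were called higher. The median difference was 0.15, a fold of 1.11, beside 0.004 for all genes. The largest were in Psmc3ip (0.63), Psmd7, Psmd3 and Psmc1.

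The count differed by role. Of the 8 lid subunits 7 were higher. Psmd7 read 11.35, 11.20 and 11.11 with zero DOX and 11.72, 11.65 and 11.60 with high DOX, a difference of 0.44 (SE 0.066, adjusted p = 6.5e-06 by limma). Its lowest restored array lay above the highest without DOX, as in 27.2% of all genes. Psmd3, another lid subunit, went from 11.38, 11.28 and 11.23 to 11.73, 11.74 and 11.68 (0.42, SE 0.051, adjusted p = 2.8e-07 by limma). Of the 6 ATPases 5 were higher, led by Psmc1 (0.32), and of the 3 base subunits without ATPase 2 were.

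All 3 catalytic subunits were higher with high DOX and their arrays did not overlap, as in 27.2% of all genes. Psmb7 differed by 0.24 (adjusted p = 0.012), Psmb6 by 0.22 (adjusted p = 6.3e-05) and Psmb5 by 0.21 (adjusted p = 0.0021, all by limma). Psmb5 read 12.59, 12.54 and 12.52 with zero DOX and 12.79, 12.76 and 12.71 with high DOX. Psmb7 was no longer called without high DOX replicate 1, at 0.18. Of the 4 other beta subunits 3 were higher. By the sets used, none of the 7 alpha subunits was called, with differences of -0.11 (Psma5) to 0.10 (Psma7) and 95% intervals between -0.23 and 0.20. A further set was called lower for Psma1 (-0.30) and for Psma5 (-0.26). Whether the roles differ from each other was not tested. Among the assembly chaperones Psmd9 was higher, and Psmd10 (-0.001) and Psmd5 (0.06) did not pass the test.

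With low DOX 21 members were higher than with zero DOX and none lower (17.6% of all genes higher), with a median of 0.15 beside -0.03 for all genes. Both comparisons use the same zero DOX arrays, so their values are given side by side only. Psmc3ip stood at 0.57 with low and 0.63 with high DOX, Psmd3 at 0.43 and 0.42, Psmd7 at 0.38 and 0.44, and Psmc1 at 0.32 in both. By role, 6 of 6 ATPases, 5 of 8 lid subunits and 3 of 3 catalytic subunits were higher with low DOX. So were 2 of 4 other beta subunits and 1 of 7 alpha subunits (Psma7, 0.15). Fitted on these groups' 6 arrays alone, 10 members were called, all higher. The rise of Psmb7 at low DOX (0.21, adjusted p = 0.033 by limma) was lost when any of 5 of the 6 arrays was left out.

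Between high and low DOX no member was called by limma, where 12.8% of all genes were. The median was -0.01, 2 members had an unadjusted p under 0.05 (Psma5 at -0.13 and Psmd8 at 0.13), and the 95% intervals lay between -0.25 and 0.23. Psmb5 read 12.72, 12.75 and 12.71 with low DOX, and Psmd7 read 11.64, 11.62 and 11.55. The order zero, low, high was found in the means of 12 of the 35 genes, with the share of all genes not counted. Over the same step 6 of 9 plasma cell markers were higher with high DOX (median 0.81), and 5 of 5 NK (-1.61), 4 of 7 B cell (-0.22) and 4 of 12 myeloid markers (-0.22) were lower. An intensity that did not pass this test is not shown to be equal at both doses.

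**Figure D4:**
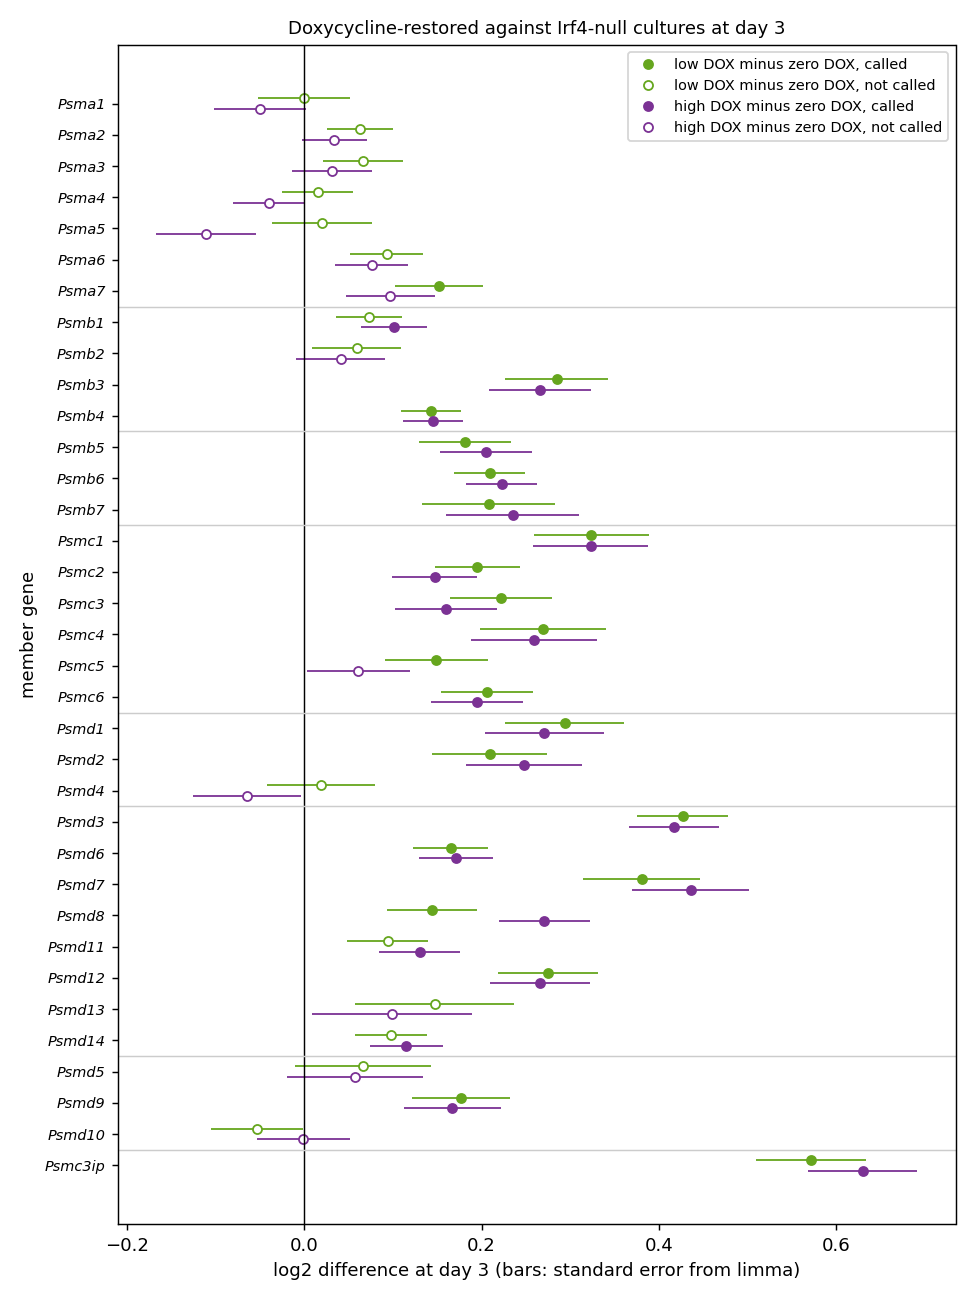
Log2 difference at day 3 of KO cultures with low or high DOX against KO cultures with zero DOX (horizontal axis, bars give limma's standard error, 3 arrays per group) for each of the 35 tested members (vertical axis, by role). Filled points passed adjusted p under 0.05: 22 with high DOX and 21 with low DOX, among them 0 and 1 of the 7 alpha subunits.

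The restored cultures were also set against wild type at day 3. Here 26 members were higher with high DOX (22.1% of all genes) and 27 with low DOX (18.9%), none lower, with medians of 0.22 in both. Psmd7 was 0.62 higher with high DOX and 0.57 with low DOX, and the catalytic Psmb7 0.45 and 0.42. In 30 of 35 genes both the wild-type and the zero DOX mean lay below both restored means, with the share of all genes not counted. For plasma cell markers the summed intensity per array was 41452 to 42681 in wild type, 34573 to 42997 with low DOX, 47322 to 52443 with high DOX and 20563 to 22034 with zero DOX. The KO cultures without DOX differed from wild type by a median of 0.065. The parts of the inducible allele, of sex and of DOX itself in these differences were not tested.

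Other markers moved with DOX at day 3. Of 9 plasma cell markers 8 were higher with high DOX than with zero DOX (median 2.99) and 8 with low DOX (median 1.83). This list includes Irf4, the gene removed and induced here, by the probe set that did not rise with DOX. All 7 tested B cell markers were lower with high DOX (median -0.44) and 6 with low DOX, where 24.2% and 18.2% of all genes were called lower. Of 12 myeloid markers 9 were lower with high DOX, with summed intensities of 2265 to 2850 against 6821 to 12374, and 8 with low DOX (3139 to 5195). All 5 tested NK markers were lower with high DOX (959 to 1733 against 4827 to 9259) and 1 with low DOX (3754 to 6632), while 3 of 5 T cell markers were lower with high DOX. Of 9 cell cycle markers 2 were higher at each dose, with summed intensities of 55952 to 58797 with high and 54446 to 58173 with low against 45310 to 49133 with zero DOX. No erythroid marker was called in these comparisons, of 2 tested. The part of these cells and of division in the proteasome differences was not tested.

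The array holds 33 further tested sets for 18 of the members. After 1 day in wild-type cells 20 of these rose and 7 fell, the latter for Psma1, Psmd11, Psmd4 and Psmd9. For Psmd4 1 further set fell by 0.66 and another rose by 0.66, and the set used rose by 0.40. With high against zero DOX at day 3, 10 of the 33 were higher and 3 lower. Of these, 1 set of Psmd11 was lower (-0.18) where the set used was higher. A set of Psma1 (-0.30) and a set of Psma5 (-0.26) were lower where the sets used were not called. Between high and low DOX, 1 of the 33 was higher and 2 were lower, among them a set of Psma5 (-0.16). Sets of 1 gene can read different transcript ends or introns, which was not analysed here. Of the 35 sets used, 2 are of a type that can cross-hybridise with unrelated transcripts and 1 with several genes (Psma6 and Psmc2, and Psmd11).

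Among the genes that build and serve the proteasome, assembly factors of the 20S core rose strongly on activation. All 5 (Pomp and Psmg1 to Psmg4) rose by day 1 in wild-type cells, by a median of 1.55, and in KO cells, by 1.44. Of all genes 33.9% and 39.8% were called higher. Psmg3 read 9.49, 9.49 and 9.31 at wild-type day 0 and 11.50, 11.46 and 11.46 at day 1. At day 3 with high against zero DOX, Psmg1 was higher (0.17) while Psmg4 (-0.25), Pomp (-0.16) and Psmg3 (-0.14) were lower. Of all genes 24.4% were higher and 24.2% lower in this comparison. With low DOX 2 of the 5 assembly factors were higher (17.6% of all genes) and none lower (18.2%).

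The p97 complex, which extracts ubiquitinated proteins and hands them to the proteasome, was measured by 6 genes. All 6 of its genes rose by day 1 in both genotypes, Vcp itself by 1.11 in wild type, where 33.9% and 39.8% of all genes were called higher. At day 3, 4 of the 6 were higher with high DOX (24.4% of all genes) and 4 with low DOX (17.6%), Vcp by 0.30 and 0.23 and Ufd1 by 0.41 and 0.24, while Faf1 and Faf2 did not pass the test. Of 4 tested shuttle receptors, which carry ubiquitinated proteins, 3 were higher with high DOX. Rad23b read 11.90, 11.72 and 11.41 with zero DOX, 12.56, 12.51 and 12.32 with low DOX and 12.74, 12.68 and 12.45 with high DOX (0.94 for high against zero, SE 0.15, adjusted p = 7.9e-06 by limma).

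Activators and the inhibitor of the core rose in 4 of 4 tested cases by day 1 in wild type (33.9% of all genes), Psme3 by 2.18. With high DOX at day 3 Psme4 was higher (0.42) and Psme1 lower (-0.11), where 24.4% of all genes were higher and 24.2% lower. Of 7 tested genes for other proteins that belong to or bind the proteasome, 4 rose (33.9% of all genes) and 2 fell (47.6%) by day 1 in wild type. Among them were Uchl5 (1.29), Ecpas (0.97) and Zfand5 (-1.27). The ubiquitin-activating enzyme Uba6 rose by 1.35.

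The list headed Nrf1 and other regulation also holds genes that are not regulators of proteasome genes, among them Sel1l and Syvn1. Its genes moved in both directions. By day 1 in wild type 2 of 9 rose (Sel1l by 0.63 and Nfe2l2 by 0.34) and 6 fell, where 33.9% of all genes rose and 47.6% fell. The largest falls were in the small Maf protein genes Maff (-3.43) and Mafk (-2.07). Nfe2l1 read 10.28, 10.30 and 10.07 at day 0 and 10.25, 10.21 and 10.15 at day 1 and did not pass the test, while in KO cells it rose by 0.45. With high DOX at day 3 Sel1l, which serves the degradation of misfolded proteins of the endoplasmic reticulum, was higher by 0.89 and with low DOX by 0.53. Ngly1, the glycanase that processes Nrf1, was higher by 0.37 and 0.27, and Nfe2l2 was lower by -0.50 and -0.32.

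The immunoproteasome genes, which the rule leaves out, encode catalytic subunits induced by interferon. Before stimulation 2 of 3 were lower in KO than in wild-type cells (median -0.18; 18.4% of all genes were lower). At day 1 all 3 were higher in KO (median 0.68, 33.9% of all genes) and at day 3 again (0.35, 19%). With high against zero DOX at day 3, 1 of the 3 was lower and none higher (median -0.21), where 24.2% of all genes were lower. This was Psmb10 (-1.02), at 11.68, 11.90 and 11.87 against 12.86, 12.87 and 12.79. Psmb8 (mean 13.32 against 13.46) and Psmb9 (13.21 against 13.42) were not called.

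Set beside the sequences shown above, the 5 members with an ARE core in the promoter window rose by 0.78 to 1.35 after 1 day in wild-type cells (median 1.03), and the 24 tested members with a window but no match rose by a median of 1.02. With high against zero DOX at day 3 all 5 with a match were called, at 0.17 to 0.27 (median 0.21), and 12 of the 24 without, at a median of 0.11. With low DOX the counts were again 5 of 5 and 12 of 24. For CCAAT, 5 of 12 members with a match and 12 of 17 without were called with high DOX. These counts are descriptions of few genes and no test was made on them.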

How the data were processed

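The deposited values are intensities on a linear scale for each probe set, which the authors normalized with D-Chip (perfect-match model), as the series text states. MAS5 also appears, with no role, in the submitters' processing notes. The log2 of intensity plus 16 was fitted in limma 3.58.1 under R 4.3.3, with 1 mean per group over all 30 arrays and 20 residual degrees of freedom, and no further normalization. Sets above the table's median (188.2) on at least 3 arrays were kept, 1 per gene with the highest mean, and p-values were adjusted over 12183 genes. With 3 arrays in each of 2 groups, the smallest p of an exact permutation test is 0.1. Arrays give no counting depth, and their number limits the precision. The fit was tested on simulated data.

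The members and lists were chosen with earlier results of these data known. Values in full are given for the catalytic subunits, for up to 4 called members with the largest difference each way per comparison, for those against the majority, and for up to 4 called genes of each other list; Psmc1, Psmd8, Psma3 and other members named outside this rule were chosen after their values were seen. Marker lists were B cell, plasma cell, T cell, myeloid, NK, erythroid and cell cycle. The plasma cell list includes Irf4 itself in all its counts and summed intensities, by the probe set that did not rise with DOX.

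Same-numbered arrays of 2 groups deviated together (all 3 correlations over 0.1) in 7 of 15 group pairs, all within KO cultures; the labels do not say that these share mice. Coordinates and promoters are RefSeq's. Other scalings, filters, pseudocounts, probe set rules, array weights, a sex term, the replicate block and fits without single arrays were tried.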

Additional observations from a re-analysis of the deposited data

Results flagged for a closer look

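These members changed differently in the 2 genotypes by a test of the difference itself, the change from day 0 in KO cells without DOX minus that in wild type. At day 1 the log2 values were 0.513 for Psmb7, 0.381 for Psmd10, 0.37 for Psma1, 0.333 for Psmd4, 0.197 for Psmb5 and -0.293 for Psmd8. At day 3 they were 0.541 for Psmb7, 0.342 for Psmd4, 0.309 for Psma1, 0.29 for Psma4, 0.245 for Psmb5, 0.192 for Psmb6 and -0.254 for Psmd8. With arrays centred on their medians, Psmd10 (0.21), Psma1 (0.20), Psmd4 (0.16) and Psmb5 (0.03) were no longer called at day 1, nor were Psmb5 (0.22) and Psmb6 (0.17) at day 3. In the main fit 31.4% of the members were higher at day 1, beside 32.4% of all genes, and 28.6% at day 3, beside 16%. On each day 2.86% were lower, beside 11.5% and 9.95% of all genes. The wild-type arrays came from females and 2 of 3 arrays in each KO group from males. With a sex term 16 members were higher and 1 lower at day 1, and 14 and 1 at day 3. Counts with a sex term, here and above, are given without the share of all genes in that fit. The term cannot separate sex from replicate 3 of the KO cultures, the only female in each KO group.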

How the results depend on the processing

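Of 187 counts of called members under other settings 173 stayed within 1.5 times in the same direction, as did 108 of 114 with 1 array left out. The exceptions lay mostly in comparisons between genotypes. For KO zero DOX against wild type at day 0 (12 members), centring gave 5, the 6 arrays alone 0, and single arrays left out 5 to 13. At day 1 (10 higher), centring gave 10 lower (median -0.079), array weights 20, single arrays left out 5 to 10, and leaving out both day 1 arrays against their labels 5. At day 3 (11), centring and a sex term gave 7 each, the 6 arrays alone 5, and single arrays left out 5 to 16. The interaction at day 1 (12) gave 4 with centring, mostly lower (median -0.032), and 20 with array weights; that at day 3 (11) gave 5 with centring and 3 with its own groups alone. Low against zero DOX at day 3 (21) gave 10 with its own groups alone, and high against low DOX (0) gave 2 with array weights. Centring moved the share of called genes that were higher from 41.6% to 52.3% for wild-type day 1 against day 0, 62.3% to 47.1% for day 3 against day 1, 73.9% to 42.8% for the interaction at day 1 and 52.3% to 36% for high against low DOX. With the replicate block the counts for high and low against zero DOX at day 3 were 23 and 21, and within KO cultures 22 and 23; no count moved by over 1.5 times. The block within KO cultures and the fit without both day 1 arrays were chosen after seeing the data. The cause of these differences was not tested. Small differences between genotypes are at the limit of 3 arrays per group.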
